A study of Mus musculus with 6 samples.

Results

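The exocytosis and SNARE machinery was taken as every gene of the table whose symbol belongs to the syntaxin (Stx), syntaxin-binding (Stxbp), VAMP, synaptotagmin (Syt), synaptotagmin-like (Sytl), Unc13, Rims, complexin (Cplx), Rab3 or Rab27 series, together with Snap23, Snap25, Snap29, Snap47, Doc2b, Rph3al, Cadps and Cadps2. These were 78 of the 24421 rows of the table. They were measured by RNA-seq in sorted islet β cells, the insulin-secreting cells of the pancreas, from 3 control and 3 βDKO samples of mice aged 7 weeks. Both groups were treated with tamoxifen and carried MIP-CreERT, a tamoxifen-inducible Cre under the mouse insulin promoter, and R26LSL-tdTomato/+, a reporter that Cre switches on. Control mice were Brg1f/+ and Brm+/-, and βDKO mice were Brg1f/f and Brm-/-, on a mixed C57BL/6J;129SV background. Brg1 (Smarca4) and Brm (Smarca2) are the interchangeable ATPase subunits of Swi/Snf, a complex that remodels chromatin, so the comparison asks which transcripts differ when β cells lose both. The controls thus carried 1 deletable or null allele of each ATPase, every cell of the βDKO mice was Brm-/-, and the sort selected cells in which Cre had opened the reporter rather than cells shown to have lost Brg1. The labels do not say whether each library came from a separate animal, so the p-values measure the spread between these libraries, which may be partly technical.

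Insulin leaves the β cell by regulated exocytosis of dense-core granules. A granule is brought to the plasma membrane and tethered there by the GTPases Rab3 and Rab27 and the effector proteins that bind them. It is then primed by Munc13, RIM and CAPS proteins, which help the SNARE proteins assemble: VAMP on the granule pairs with a syntaxin and a SNAP25-type protein on the plasma membrane, guided by a Munc18 protein. Calcium entering through voltage-gated channels is sensed by synaptotagmins and Doc2 proteins, complexin clamps or helps the assembled complex, and tomosyn and amisyn occupy the place of VAMP and hold fusion back. Many of the same families have members that serve the endosome, the Golgi apparatus or the endoplasmic reticulum instead.

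The values are TPM, a transcript abundance per gene length scaled to the same total in every library. The libraries held 25388872 to 31282056 reads recovered from them. Ins1 and Ins2 together took 42.6 to 48.3% of all TPM in the controls and 6.37 to 8.93% in βDKO, and TPM are parts of a fixed total, so the TPM of other transcripts would be higher in βDKO even with the same number of copies. Each result is therefore also given after rescaling by median-of-ratios size factors, which sets the typical gene near 0: the median log2 fold change over the 10404 genes tested was 0.83 on TPM and 0.028 after rescaling. A member is said to have risen or fallen only where it passed an adjusted p of 0.05 in that direction on both scales. Smarca4 stood at 8.997, 13.5 and 12.4 TPM across controls 1 to 3 and 10.6, 10.5 and 11.4 TPM across βDKO 1 to 3, with a log2 fold change of -0.079 on TPM (adjusted p = 0.667) and -0.86 after rescaling (adjusted p = 0.000562). Smarca2 stood at 14.1, 27.5 and 26.6 against 25.04, 23.2 and 22.4 TPM, with 0.11 on TPM (adjusted p = 0.684) and -0.71 after rescaling (adjusted p = 0.0101). Reads of the exons that remain count toward both values, so they do not check the deletions. No libraries were closer than βDKO 1 and βDKO 2, with an SD of 0.12 between their log2 values against 0.25 to 0.38 in the other pairs within a group, though they differed by more than sampling noise. The summed β-cell markers ran from 466487 to 534193 TPM in the controls and 68017 to 96332 TPM in βDKO, with 6 of 8 lower on both scales. Among them Mafa, a β-cell transcription factor, stood at 731, 736 and 670.0 against 23.7, 22.5 and 22.0 TPM. Markers of other cells moved too. The immune list summed to 121 to 213 TPM in the controls and 8.75 to 14.5 TPM in βDKO (3 of 3 tested lower on both scales, 2 of 10 under 1 TPM in all libraries). Most of the control sums was C1qa, at 131 ± 41.6 TPM in the controls and 5.79 ± 1.66 TPM in βDKO. The α-cell list summed to 2381 to 5069 TPM in the controls and 579 to 873 TPM in βDKO (3 of 4 tested lower). For the PP and ε list the sums were 1592 to 4019 TPM in the controls and 608 to 891 TPM in βDKO (2 of 2 tested lower). The ductal list summed to 583 to 707 TPM in the controls and 423 to 469 TPM in βDKO (2 of 2 tested lower). Krt7 (284 ± 58.8 TPM and 193 ± 2.81 TPM) and Krt18 (364 ± 65.7 TPM and 241 ± 26.1 TPM) made up most of these sums. Krt19, Sox9 and Spp1 were low, with lower means in βDKO, whereas Cftr had a higher mean there (2.67 ± 1.39 TPM and 5.11 ± 0.987 TPM). The δ-cell list summed to 2519.9 to 5002 TPM in the controls and 1968 to 2541 TPM in βDKO (1 of 3 higher and 1 lower) and the Schwann and neuron list to 45.3 to 61.9 TPM in the controls and 50.4 to 51.8 TPM in βDKO (1 of 3 tested higher and 1 lower). The endothelial list summed to 5.85 to 11.2 TPM in the controls and 24.0 to 28.8 TPM in βDKO (1 of 1 tested higher). Most of this was Esam (7.46 ± 1.69 TPM and 26.2 ± 2.41 TPM), whereas Pecam1, Cdh5, Kdr and Plvap had lower means in βDKO. All 5 stellate and fibroblast markers stayed under 1 TPM in every library. The acinar list summed to 435, 47.9 and 12.4 TPM across controls 1 to 3 and 101, 104 and 11.9 TPM across βDKO 1 to 3 (0 of 5 tested called by limma on both scales). Their part in the results below was not tested, and in these bulk samples fewer cells of a type cannot be told apart from less RNA per cell.

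The machinery was not shifted one way in βDKO: Snap25, the plasma-membrane SNARE, was 5.06-fold higher in mean TPM, while the Rab27 effector Sytl4 and the Rab3 effector Rph3al were 3.84-fold and 4.56-fold lower. Of the 78 members, 53 reached 5 TPM in at least 3 libraries and were tested. On both scales together, 18 members rose, 34.0% of those tested against 23.4% of all genes tested, and 7 fell, 13.2% against 4.61%. Among the 44 members at 5 TPM in every control, 11 rose, 25% against 19.0% of the 8339 genes that met the same condition, and 7 fell, 15.9% against 5.76%. Taken on TPM, 38 were higher, 71.7% against a background of 81.4%. Taken after rescaling, 18 were higher and 17 lower, 34.0% and 32.1% against backgrounds of 23.4% and 21.1%. The members' median log2 fold change was 0.71 on TPM and -0.12 after rescaling, beside 0.83 and 0.028 over all genes tested. Without a test, 39 members were higher on TPM in every βDKO library than in any control and 7 lower, against backgrounds of 83.2% and 4.82% of genes tested, and after rescaling 18 were higher and 20 lower, against 31.0% and 27.0%. The remaining 28 tested members depended on the scale or were not called: 16 were higher on TPM alone, 6 lower after rescaling alone, 4 (Snap29, Stx6, Stx7 and Stxbp2) higher on TPM and lower after rescaling, against a background of 6.28%, and 2 (Cplx2 and Snap23) called on neither. Of the rises, 5 (Doc2b, Rims2, Stx2, Stxbp5l and Syt16) were under 5 TPM in every control, and Sytl5 and Stxbp4 reached 5 TPM in only 1 control each. All of these met the filter only through the group in which they were high, and their calls do not add to the count as evidence. The count of rises went from 18 to 11 without βDKO 2 and to 12 without βDKO 1 or βDKO 3. Those settings also took the 5 that were under 5 TPM in every control out of the test. Exons of Doc2b, Rab3b, Syt4, Syt7 and Syt16 overlap noncoding transcripts on the opposite strand in the GENCODE annotation, those of Snap29 overlap Pi4ka, those of Stx18 overlap Nsg1, and a pseudogene lies within Rab27a. Strand use in counting is not given, so these reads cannot be told apart.

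**Figure D1:**
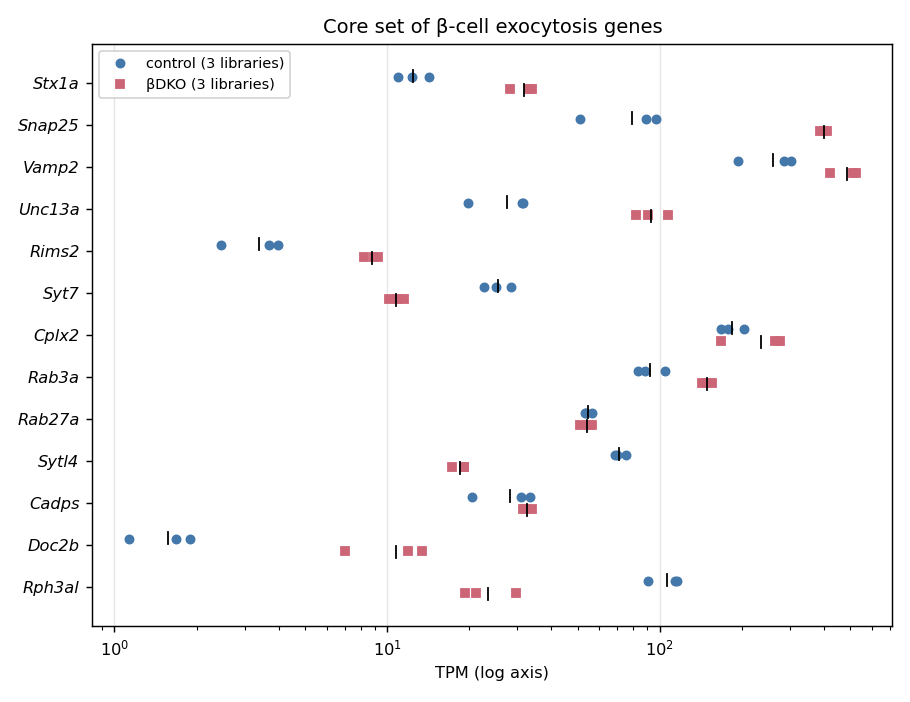
TPM (log axis) of 13 genes widely used to describe β-cell exocytosis, with 1 circle per control library, 1 square per βDKO library and a black bar at each group mean. Snap25, Unc13a and Doc2b lie to the right in all 3 βDKO libraries, Rph3al, Sytl4 and Syt7 lie to the left, and Rab27a, Cadps and Cplx2 overlap.

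By log2 fold change on TPM, the largest rise was that of Sytl5 (chrX:9885622-9994543, GRCm38), which codes for a Rab27-binding synaptotagmin-like protein. It stood at 2.98, 4.57 and 6.31 TPM across controls 1 to 3 and at 29.8, 27.1 and 33.1 TPM across βDKO 1 to 3, a ratio of means of 6.50. All 3 βDKO libraries lay above every control, but only control 3 reached 5 TPM, so Sytl5 met the filter only through βDKO. For Sytl5 the log2 fold change was 2.50 on TPM (SE 0.22, limma adjusted p = 3.96e-05) and 1.74 after rescaling (SE 0.17, limma adjusted p = 0.000156). Stxbp5l (chr16:37114942-37384962) codes for tomosyn-2, a brake on SNARE assembly, and its ratio of means was larger, 7.63. Its values were 0.928, 2.11 and 1.66 TPM across controls 1 to 3 and 12.6, 10.7 and 12.5 TPM across βDKO 1 to 3, again without overlap. Stxbp5l also met the filter only through βDKO. For Stxbp5l the log2 fold change was 2.36 on TPM (SE 0.20, limma adjusted p = 3.23e-05) and 1.71 after rescaling (SE 0.17, limma adjusted p = 0.000148).

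By the same measure the largest fall was that of Rph3al (chr11:75830999-75938429), which codes for Noc2, a Rab3 and Rab27 effector of endocrine granules. It went from 90.6, 114 and 116 TPM across controls 1 to 3 to 19.4, 21.1 and 29.8 TPM across βDKO 1 to 3, so the highest βDKO library was still far below the lowest control, and its mean was 4.56-fold lower. For Rph3al the log2 fold change was -2.16 on TPM (SE 0.18, limma adjusted p = 2.75e-05) and -2.98 after rescaling (SE 0.16, limma adjusted p = 6.22e-06). Rab3b (chr4:108879063-108943324), one of the Rab3 GTPases, went from 16.0, 24.0 and 27.6 to 5.46, 4.42 and 3.84 TPM, also without overlap, and its mean was 4.93-fold lower. For Rab3b the log2 fold change was -2.06 on TPM (SE 0.22, limma adjusted p = 8.55e-05) and -2.80 after rescaling (SE 0.15, limma adjusted p = 7e-06). Both falls and the 5 others described below passed on both scales in all 15 alternative settings tried.

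**Figure D2:**
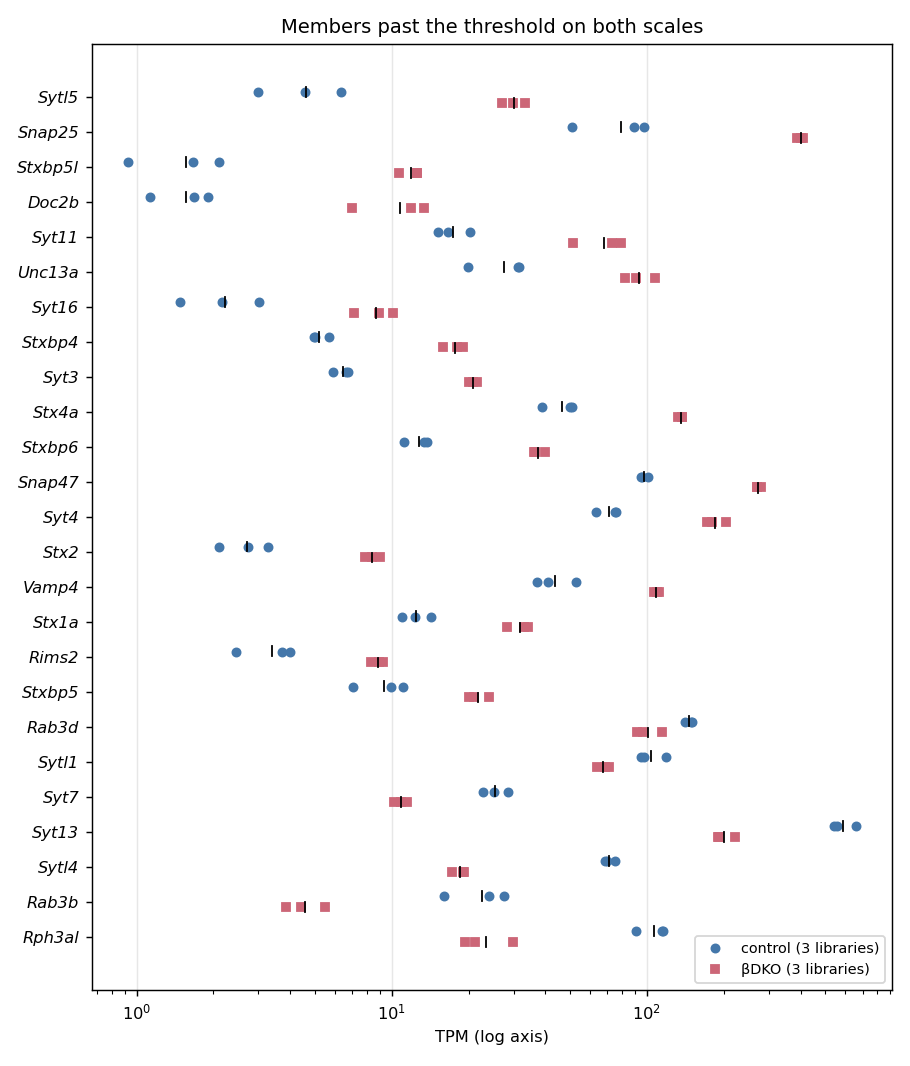
TPM (log axis) of the 25 members that passed the threshold in the same direction on both scales, ordered by log2 fold change on TPM. Circles are control libraries, squares βDKO libraries and black bars group means. In none of the 25 do the groups overlap, and the rises include genes from under 2 TPM (Stxbp5l, Doc2b) in the controls to 400.2 TPM in βDKO (Snap25).

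The promoters of these 4 genes are shown because they are the largest rises and falls by log2 fold change on TPM for which RefSeq (GRCm38.p6) gives a start in the table used, and because they differ in CpG content. Each is 300 bases, from 250 before to 50 after the RefSeq start, 5′ to 3′ on the gene's strand, with CpG dinucleotides in capitals. The windows are chr11:75925842-75926141 (minus strand, 5 CpG), chr4:108878820-108879119 (plus strand, 8 CpG), chr16:37384909-37385208 (minus strand, 18 CpG) and chrX:9885371-9885670 (plus strand, 1 CpG). The Rph3al start lies inside the span that the GENCODE annotation gives the gene.
Rph3al: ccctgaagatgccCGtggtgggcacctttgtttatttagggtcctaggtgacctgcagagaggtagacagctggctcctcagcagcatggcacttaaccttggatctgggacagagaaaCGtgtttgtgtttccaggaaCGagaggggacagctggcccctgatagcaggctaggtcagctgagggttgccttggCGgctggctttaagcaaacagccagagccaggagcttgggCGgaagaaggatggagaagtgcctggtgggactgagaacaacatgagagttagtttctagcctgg
Rab3b: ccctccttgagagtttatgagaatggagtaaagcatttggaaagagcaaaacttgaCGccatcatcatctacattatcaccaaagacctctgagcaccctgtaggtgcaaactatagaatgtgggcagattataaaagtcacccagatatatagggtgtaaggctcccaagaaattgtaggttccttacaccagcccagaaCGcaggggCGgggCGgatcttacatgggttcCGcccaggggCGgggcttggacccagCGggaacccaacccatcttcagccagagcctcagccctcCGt
Stxbp5l: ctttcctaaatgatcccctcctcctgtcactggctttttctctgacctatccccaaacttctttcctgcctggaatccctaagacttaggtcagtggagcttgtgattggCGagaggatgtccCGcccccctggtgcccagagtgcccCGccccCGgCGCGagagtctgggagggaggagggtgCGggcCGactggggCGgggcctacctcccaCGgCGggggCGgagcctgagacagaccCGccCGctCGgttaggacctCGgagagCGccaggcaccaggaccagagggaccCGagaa
Sytl5: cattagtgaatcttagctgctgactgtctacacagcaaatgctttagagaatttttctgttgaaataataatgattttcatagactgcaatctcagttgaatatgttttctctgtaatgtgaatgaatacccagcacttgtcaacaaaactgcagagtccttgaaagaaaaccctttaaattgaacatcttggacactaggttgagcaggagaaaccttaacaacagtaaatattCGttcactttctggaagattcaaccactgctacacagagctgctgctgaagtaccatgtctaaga

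RefSeq windows were found for 58 of the 78 members, 71 windows in all, and the ratio of CpG observed to CpG expected from base composition was computed for each. The 5 windows of members that fell had a median ratio of 0.318, and 4 of them (Rph3al, Rab3b, Sytl1 and Sytl4) were under 0.5, whereas Rab3d was at 0.774. The 16 windows of 14 members that rose had a median of 0.775, with 2 under 0.5: Sytl5 at 0.0976 and 1 of the Stx2 windows at 0.117. Windows of the other members had a median of 0.661. Over the 9956 windows of all genes tested the median was 0.779, and 18.4% were under 0.5. This division was noticed after the values were seen and rests on 5 windows of falling genes, since Syt7 and Syt13 had no window, so it is a description without a test. The windows were also searched on both strands for 3 motifs, none of which contains another. The letters TAAT, the core bound by homeodomain factors such as Pdx1, were present in 1 of 5 falling and 4 of 16 rising windows, against 40.4% of windows of tested genes. The letters TGCTGA, part of a Maf recognition element, were present in 2 of 5 and 3 of 16, against 14.6%, and CAGCACC, part of the element bound by the neuronal repressor REST, in 0 of 5 and 1 of 16, against 7.64%. The REST hit among the rising windows, in Unc13a, overlaps 1 of their Maf hits, so these counts are not independent.

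Among the syntaxins, the membrane-anchored SNAREs of the target membrane, 3 of 12 tested members rose (Stx1a, Stx2 and Stx4a, all of the plasma membrane) and none fell on both scales. The 3 rises were 25% of those tested, near the background of 23.4%, and Stx2 entered the test only through βDKO. Stx1a, the partner of Snap25 in calcium-triggered fusion, stood at 10.9, 14.2 and 12.3 TPM across controls 1 to 3 and 33.1, 34.1 and 28.2 TPM across βDKO 1 to 3. These ranges were apart. For Stx1a the log2 fold change was 1.28 on TPM (SE 0.15, limma adjusted p = 0.000118) and 0.48 after rescaling (SE 0.11, limma adjusted p = 0.00945). Without βDKO 2 its rescaled adjusted p was 0.0566. Stx4a (syntaxin 4), the more abundant plasma-membrane syntaxin of these cells, stood at 38.8, 51.0 and 50.1 against 137, 132 and 138 TPM. Every βDKO library lay well above every control. For Stx4a the log2 fold change was 1.53 on TPM (SE 0.12, limma adjusted p = 2.3e-05) and 0.69 after rescaling (SE 0.08, limma adjusted p = 0.000253). Stx2 went from 2.70 ± 0.586 TPM to 8.402 ± 0.602 TPM (SD, n = 3 each; rescaled log2 fold change 0.66, limma adjusted p = 0.00411). Stx3, a plasma-membrane syntaxin linked to granule-to-granule fusion, did not follow: it stood at 6.53 ± 0.993 TPM and 8.45 ± 0.624 TPM, with a log2 fold change of 0.33 on TPM (adjusted p = 0.0701) and -0.41 after rescaling (adjusted p = 0.02). Its share of the summed TPM of Stx1a, Stx2, Stx3 and Stx4a went from 9.56 ± 0.507% in the controls to 4.58 ± 0.255% in βDKO, while Stx1a held 18.3 ± 0.967% and 17.3 ± 1.57% and Stx4a 68.2 ± 1.55% and 73.6 ± 1.96%.

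None of the tested syntaxins of internal membranes rose or fell on both scales. Stx7, a late-endosomal syntaxin with the highest mean of the syntaxins over all 6 libraries, though below Stx4a in each βDKO library, stood at 65.7, 83.0 and 89.0 TPM across controls 1 to 3 and 109, 114 and 107 TPM across βDKO 1 to 3. Its groups were apart on TPM, yet its log2 fold change had opposite signs on the 2 scales, 0.48 on TPM (adjusted p = 0.00656) and -0.36 after rescaling (adjusted p = 0.00759). Stx6, of the trans-Golgi network and immature granules, did the same (log2 fold change 0.43 on TPM, adjusted p = 0.00708, and -0.41 after rescaling, adjusted p = 0.00476), and Stx8, the endosomal partner of Stx7, was lower after rescaling alone (-0.50, adjusted p = 0.0151). Stx5a (ER to Golgi), Stx12 (recycling endosome), Stx16 (trans-Golgi network), Stx17 (autophagosome) and Stx18 (ER) were higher on TPM alone, with rescaled log2 fold changes from -0.28 for Stx18 to 0.15 for Stx16. Stx11 and Stx19 did not reach the filter.

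In the SNAP25 family, which supplies 2 of the helices of the SNARE bundle in 1 protein, the neuronal and endocrine member rose most. Snap25 (chr2:136713453-136782428) stood at 51.0, 89.0 and 97.3 TPM across controls 1 to 3 and at 402, 389 and 409.9 TPM across βDKO 1 to 3. The lowest βDKO library lay far above the highest control. For Snap25 the log2 fold change was 2.38 on TPM (SE 0.22, limma adjusted p = 4.29e-05) and 1.53 after rescaling (SE 0.15, limma adjusted p = 0.000151). Snap47, a broadly expressed relative on internal membranes, also rose, from 97.1 ± 3.40 TPM to 274 ± 6.14 TPM (log2 fold change 1.49 on TPM, adjusted p = 4.03e-06, and 0.64 after rescaling, adjusted p = 0.00188). Its exons overlap those of Jmjd4 on the other strand. Snap23, the general plasma-membrane paralog, stood at 7.92, 9.20 and 13.5 TPM in the controls and 12.4, 11.7 and 16.9 TPM in βDKO, overlapping, with 0.40 on TPM (adjusted p = 0.116) and -0.38 after rescaling (adjusted p = 0.127). Snap29, which acts on internal membranes and autophagosomes, was at 18.1 ± 2.28 TPM and 23.0 ± 1.10 TPM, higher on TPM and lower after rescaling (log2 fold change 0.34 on TPM, adjusted p = 0.0415, and -0.47 after rescaling, adjusted p = 0.0121). Within a library, where no scaling enters, Snap25 was 6.44 to 9.67 times Snap23 in the controls and 24.3 to 33.4 times in βDKO. Its share of the family's summed TPM was 38.0 ± 7.10% (SD, n = 3) in the controls, lowest in control 1, and 56.3 ± 0.444% in βDKO.

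Of the VAMPs, the SNAREs of the granule or vesicle, only Vamp4 of the 5 tested passed on both scales. Vamp2, the VAMP of insulin granules, stood at 194, 286 and 304 TPM across controls 1 to 3 and 513, 526 and 422 TPM across βDKO 1 to 3. The groups were apart on TPM and overlapped after rescaling. For Vamp2 the log2 fold change was 0.92 on TPM (SE 0.17, limma adjusted p = 0.00143) and 0.066 after rescaling (SE 0.13, limma adjusted p = 0.698). Vamp3 (53.5 ± 5.68 TPM and 104 ± 5.54 TPM), a cellubrevin that can replace Vamp2, and Vamp8 (161 ± 18.4 TPM and 246 ± 1.44 TPM), used by newly arriving granules, were likewise higher on TPM alone, at 0.11 and -0.23 after rescaling. Vamp1, near 5 TPM, followed them (-0.068). Vamp4, which sorts material at the trans-Golgi network and immature granules, went from 43.6 ± 8.26 TPM to 109 ± 2.46 TPM (log2 fold change 1.32 on TPM, adjusted p = 7.64e-05, and 0.48 after rescaling, adjusted p = 0.00765). Within a library, Snap25 was 0.263 to 0.320 times Vamp2 in the controls and 0.739 to 0.971 times in βDKO, and Vamp2 was 17.7 to 24.7 and 14.9 to 15.5 times Stx1a. These are ratios of transcripts per length and not of proteins.

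Among the proteins that bind syntaxin, 4 of 7 tested rose and none fell on both scales, beside backgrounds of 23.4% and 4.61% of genes tested. Of the risers, Stxbp5l and Stxbp4 met the filter only through βDKO. Neither Stxbp2 nor Stxbp3, both of the Sec1/Munc18 kind, was among the risers. Stxbp2 (Munc18-2), the most abundant of the series, stood at 57.1, 80.0 and 79.2 against 109, 109 and 106 TPM, higher on TPM and lower after rescaling (log2 fold change 0.59 on TPM, adjusted p = 0.00401, and -0.25 after rescaling, adjusted p = 0.0366). Stxbp3 (Munc18c), the partner of Stx4, was lower after rescaling alone (-0.46, adjusted p = 0.0112), and its value is uncertain because the near-identical pseudogene Stxbp3-ps was listed at 2.70 to 4.29 TPM.

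Beside Stxbp5l, whose promoter is shown above, Stxbp4, Stxbp6 and Stxbp5 rose. Stxbp4 (synip), which binds Stx4, stood at 4.94, 4.98 and 5.68 TPM across controls 1 to 3 and 19.0, 18.1 and 15.8 TPM across βDKO 1 to 3. No library of one group reached the other, but only control 3 reached 5 TPM, so Stxbp4 met the filter only through βDKO. For Stxbp4 the log2 fold change was 1.59 on TPM (SE 0.14, limma adjusted p = 3.77e-05) and 0.82 after rescaling (SE 0.12, limma adjusted p = 0.00112). Stxbp6 (amisyn), which carries a VAMP-like helix without a membrane anchor, went from 12.8 ± 1.39 TPM to 37.5 ± 1.96 TPM (log2 fold change 1.49 on TPM, adjusted p = 3.74e-05, and 0.68 after rescaling, adjusted p = 0.000572). Stxbp5 (tomosyn-1) went from 9.35 ± 2.06 TPM to 21.7 ± 2.03 TPM (log2 fold change 1.15 on TPM, adjusted p = 0.000529, and 0.36 after rescaling, adjusted p = 0.0381), and its rescaled call was the least stable of the rises, lost in 9 of the 15 alternative settings.

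Of the 5 priming factors tested, Unc13a and Rims2 rose and none fell on both scales, beside backgrounds of 23.4% and 4.61% of genes tested. Rims2 entered the test only through βDKO. Unc13a (Munc13-1), which opens syntaxin for SNARE assembly, stood at 19.8, 31.6 and 31.2 TPM across controls 1 to 3 and 90.4, 81.8 and 108 TPM across βDKO 1 to 3. The groups were far apart. For Unc13a the log2 fold change was 1.74 on TPM (SE 0.19, limma adjusted p = 0.000105) and 0.91 after rescaling (SE 0.14, limma adjusted p = 0.00122). Some of its exon sequence overlaps Colgalt1 on the opposite strand. Rims2, the large RIM scaffold of β cells that ties Rab3 to calcium channels, stood at 2.46, 3.70 and 3.98 against 8.93, 8.26 and 9.23 TPM. It was higher in all 3 βDKO libraries. For Rims2 the log2 fold change was 1.18 on TPM (SE 0.18, limma adjusted p = 0.000443) and 0.47 after rescaling (SE 0.13, limma adjusted p = 0.0197). With βDKO 1 and 2 averaged, its rescaled adjusted p was 0.066. Unc13b (Munc13-2) was higher on TPM alone (log2 fold change 0.84 on TPM, adjusted p = 0.0342, and 0.039 after rescaling, adjusted p = 0.914).

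Cadps and Rims3 did not pass on TPM. Cadps (CAPS1), a priming factor of dense-core granules, stood at 20.5, 33.4 and 31.0 TPM across controls 1 to 3 and 33.9, 32.1 and 31.5 TPM across βDKO 1 to 3, overlapping. For Cadps the log2 fold change was 0.22 on TPM (SE 0.18, limma adjusted p = 0.278) and -0.60 after rescaling (SE 0.11, limma adjusted p = 0.00348). Rims3, a short RIM without the Rab3-binding part, had the highest mean of this role over all 6 libraries, though Unc13a was above it in 3 of 3 βDKO libraries. It stood at 80.2, 145 and 100.3 TPM in the controls and 88.5, 75.7 and 79.7 TPM in βDKO. It overlapped on TPM and was lower after rescaling. For Rims3 the log2 fold change was -0.37 on TPM (SE 0.20, limma adjusted p = 0.107) and -1.21 after rescaling (SE 0.15, limma adjusted p = 0.000459). Rims2 made up 3.08 ± 0.660% of the summed Rims TPM in the controls and 9.58 ± 0.621% in βDKO, and Unc13a 65.4 ± 6.23% and 78.4 ± 0.302% of the summed Unc13 TPM.

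Cplx2 carried 99.9% of the complexin TPM in both groups and was one of 2 tested members called on neither scale. It stood at 169, 178 and 205 TPM across controls 1 to 3 and 277, 264 and 167 TPM across βDKO 1 to 3. βDKO 3 was just below the lowest control, and βDKO 1 and 2 were above every control. For Cplx2 the log2 fold change was 0.33 on TPM (SE 0.19, limma adjusted p = 0.127) and -0.52 after rescaling (SE 0.18, limma adjusted p = 0.0531). Doc2b, a high-affinity calcium sensor that binds SNAREs and Munc18 proteins, stood at 1.13, 1.67 and 1.90 TPM in the controls and 13.4, 11.9 and 6.99 TPM in βDKO. It was low in every control and lowest of the βDKO libraries in βDKO 3. For Doc2b the log2 fold change was 2.17 on TPM (SE 0.25, limma adjusted p = 0.000119) and 1.52 after rescaling (SE 0.22, limma adjusted p = 0.000988). It was counted by 80 to 119 recovered reads in the controls and 305 to 609 in βDKO.

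**Figure D3:**
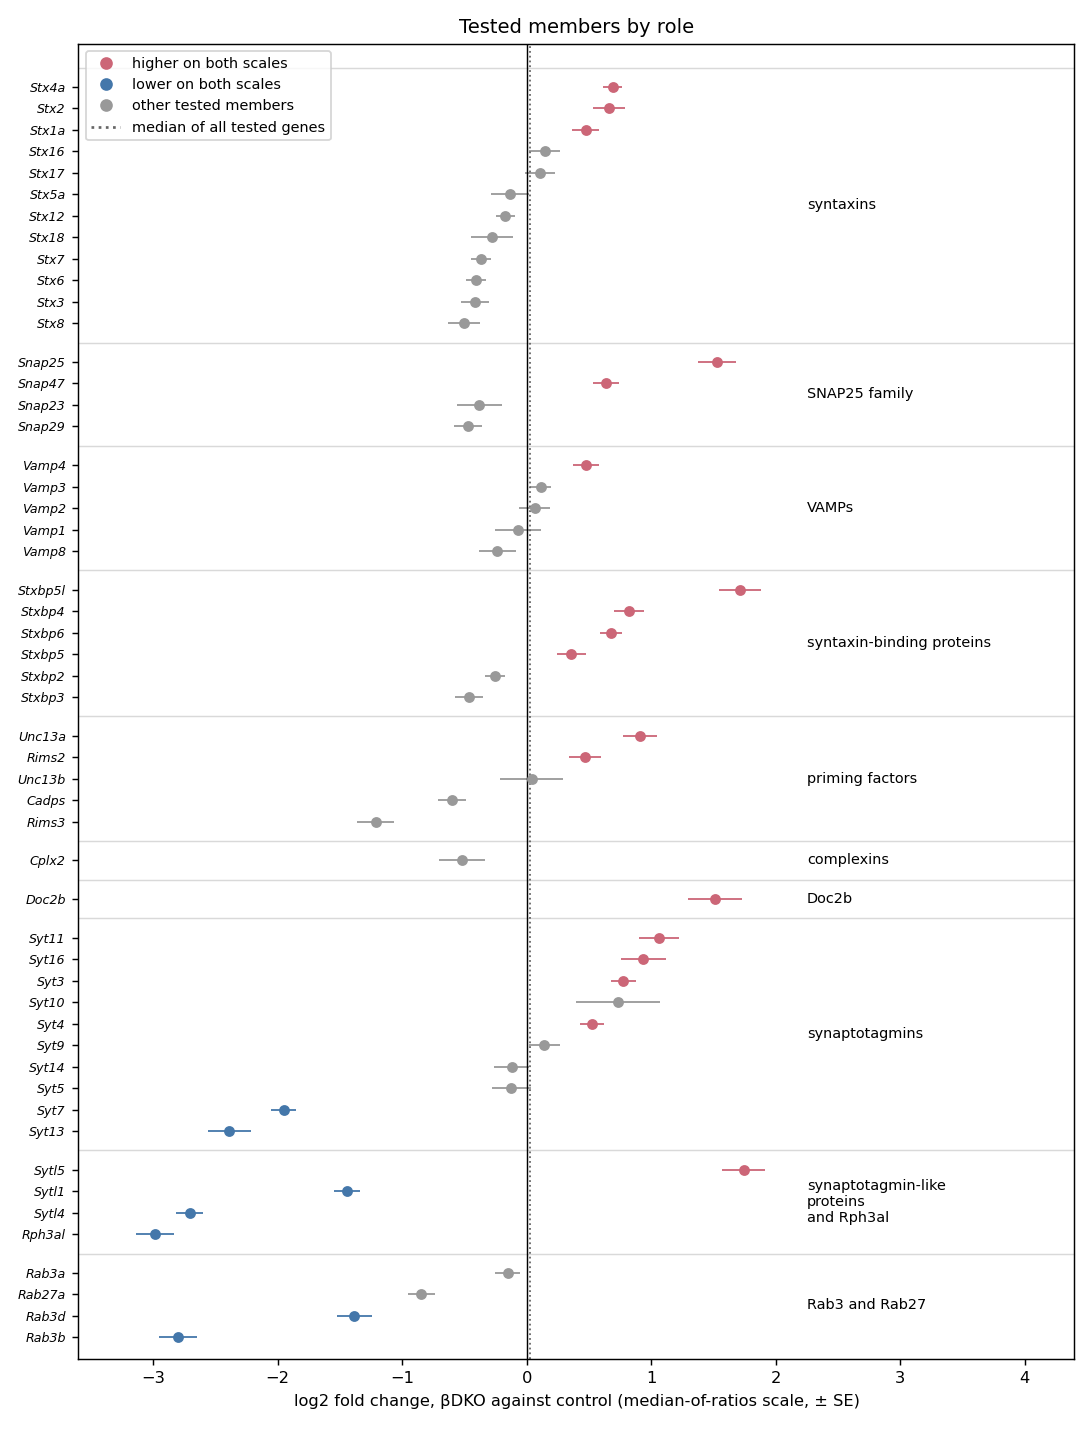
log2 fold change of tested members after rescaling (points, with SE bars), grouped by role and coloured where the member passed in 1 direction on both scales; the dotted line is the median of all genes tested. The members that fell sit in 3 roles: the synaptotagmins, the synaptotagmin-like group with Rph3al, and the Rab GTPases. The SNARE, syntaxin-binding and priming roles hold risers and members not called in the same direction on both scales. On the rescaled axis shown, 4 syntaxins, 1 SNAP25-family member, 2 syntaxin-binding proteins and 2 priming factors were called lower.

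The synaptotagmins, of whose 17 members 8 are counted here as calcium-binding, split: 4 of 10 tested rose and 2 fell. The backgrounds were 23.4% and 4.61% of genes tested. Syt16, among those that rose, and Syt10, which did not pass on both scales, met the filter only through βDKO. Of the 4 that rose, only Syt3 is among the 8 calcium-binding members. Syt13, a synaptotagmin that does not bind calcium and the most abundant of the family, stood at 660.3, 543 and 556 TPM across controls 1 to 3 and 189, 192 and 221 TPM across βDKO 1 to 3. The highest βDKO library was far below the lowest control. For Syt13 the log2 fold change was -1.54 on TPM (SE 0.11, limma adjusted p = 1.23e-05) and -2.39 after rescaling (SE 0.17, limma adjusted p = 3.13e-05). Syt7, a high-affinity calcium sensor of insulin granules, stood at 22.7, 28.5 and 25.1 against 11.5, 10.8 and 10.2 TPM. The groups were apart. For Syt7 the log2 fold change was -1.16 on TPM (SE 0.14, limma adjusted p = 0.000143) and -1.95 after rescaling (SE 0.10, limma adjusted p = 5.95e-06). Within a library Syt7 was 2.004 to 2.08 times Stx1a in the controls and 0.318 to 0.360 times in βDKO.

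Syt11, which does not bind calcium, had the largest log2 fold change of the family and went from 15.2, 20.3 and 16.6 TPM across controls 1 to 3 to 79.2, 73.1 and 51.2 TPM across βDKO 1 to 3. βDKO 3 was the lowest of its group yet above every control. For Syt11 the log2 fold change was 1.89 on TPM (SE 0.19, limma adjusted p = 6.42e-05) and 1.06 after rescaling (SE 0.16, limma adjusted p = 0.00131). Syt16, a divergent family member, stood at 1.48, 3.03 and 2.15 TPM against 10.1, 8.90 and 7.08 TPM. For Syt16 the log2 fold change was 1.61 on TPM (SE 0.22, limma adjusted p = 0.000263) and 0.94 after rescaling (SE 0.18, limma adjusted p = 0.00423). Syt3, a calcium-binding member, stood at 5.88, 6.76 and 6.62 TPM in the controls and 21.6, 20.8 and 20.0 TPM in βDKO. Its libraries were tightly grouped on each side. For Syt3 the log2 fold change was 1.56 on TPM (SE 0.13, limma adjusted p = 2.81e-05) and 0.78 after rescaling (SE 0.10, limma adjusted p = 0.000547). Syt4, which lacks part of the calcium-binding site and is known in mouse islets as a gene of β-cell maturation, went from 71.3 ± 6.82 TPM to 186 ± 17.2 TPM (log2 fold change 1.37 on TPM, adjusted p = 2.46e-05, and 0.52 after rescaling, adjusted p = 0.00332). Syt5, Syt9, Syt10 and Syt14 were higher on TPM alone, at -0.12, 0.14, 0.73 and -0.12 on the rescaled log2 scale. The names Syt5 and Syt9 have been exchanged in parts of the literature, and the table's symbols are kept here.

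The make-up of the family thus differed between the groups without any scaling. Syt13 made up 72.8 ± 3.61% of all synaptotagmin TPM in the controls and 30.8 ± 2.04% in βDKO, and Syt4 8.92 ± 1.36% and 28.5 ± 1.96%. With Syt13 left out of the sum, Syt4 made up 32.7 ± 2.29% and 41.2 ± 4.02%. Among the 8 calcium-binding members (Syt1, Syt2, Syt3, Syt5, Syt6, Syt7, Syt9 and Syt10), Syt5 held the largest share in both groups, 59.1 ± 4.27% and 66.02 ± 1.68%. Syt7 went from 21.8 ± 1.93% of them to 6.27 ± 0.365%, and Syt3 from 5.52 ± 0.602% to 12.03 ± 0.454%. Syt1, the sensor of fast synaptic release, was listed at no more than 0.356 TPM in any library.

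Of the 4 effectors tested that link Rab3 and Rab27 to the granule and the plasma membrane, 3 fell and 1 rose. The backgrounds were 4.61% and 23.4% of genes tested. Sytl4 (granuphilin), which binds Rab27a and Stx1a and docks insulin granules, stood at 69.5, 68.6 and 75.1 TPM across controls 1 to 3 and 19.1, 19.1 and 17.3 TPM across βDKO 1 to 3. The values were even within each group and far apart between them. For Sytl4 the log2 fold change was -1.89 on TPM (SE 0.11, limma adjusted p = 6e-06) and -2.71 after rescaling (SE 0.11, limma adjusted p = 2.24e-06). Sytl1, another Rab27-binding relative, had the highest mean of this role over all 6 libraries, though not over the controls alone, and stood at 94.6, 118 and 97.6 against 63.7, 70.7 and 68.4 TPM. It was lower in all 3 βDKO libraries. For Sytl1 the log2 fold change was -0.60 on TPM (SE 0.11, limma adjusted p = 0.0013) and -1.44 after rescaling (SE 0.11, limma adjusted p = 3.52e-05). Rph3al and Sytl5, described above with their promoters, moved in opposite directions, and Sytl5 met the filter only through βDKO. Within the Sytl series, Sytl4 made up 38.4 ± 3.57% of summed TPM in the controls and 15.6 ± 1.09% in βDKO, Sytl5 2.46 ± 0.808% and 25.4 ± 2.65%, and Sytl1 55.6 ± 3.71% and 57.1 ± 1.72%. Sytl3, whose exons overlap Ezr on the opposite strand, did not reach the filter. It stood at 2.53, 8.47 and 9.63 TPM in the controls and 2.47, 3.40 and 0.721 TPM in βDKO. Sytl1 and Sytl3 are also expressed in leukocytes. The summed immune markers moved with them, at 121 to 213 TPM in the controls and 8.75 to 14.5 TPM in βDKO. Most of the control sums was C1qa (131 ± 41.6 TPM), and Ptprc was at most 0.078 TPM in any library. The part of leukocytes in the Sytl1 and Sytl3 values was not tested.

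Of the 4 GTPases tested, Rab3b and Rab3d fell, and Rab27a and Rab3a did not pass on both scales. The background of falls was 4.61% of genes tested. Rab27a, the Rab of insulin granules, stood at 53.7, 53.2 and 56.4 TPM across controls 1 to 3 and 56.5, 54.9 and 51.0 TPM across βDKO 1 to 3. The groups overlapped on TPM and were apart after rescaling. For Rab27a the log2 fold change was -0.0092 on TPM (SE 0.10, limma adjusted p = 0.931) and -0.85 after rescaling (SE 0.11, limma adjusted p = 0.000509). Against its effector Sytl4 in the same library, Rab27a stood at 0.751 to 0.775 in the controls and 2.87 to 2.96 in βDKO, and against Rph3al at 0.466 to 0.593 and 1.71 to 2.92. Rab3a, the Rab3 of neurons and β cells, stood at 83.6, 88.5 and 105 TPM in the controls and 147, 156 and 143 TPM in βDKO. It was higher in every βDKO library on TPM and overlapped after rescaling. For Rab3a the log2 fold change was 0.69 on TPM (SE 0.11, limma adjusted p = 0.000493) and -0.15 after rescaling (SE 0.10, limma adjusted p = 0.237). Some of its exon sequence overlaps Mpv17l2 on the opposite strand.

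Rab3d, the Rab3 best known from exocrine and endocrine secretory granules, had the highest mean of this role over all 6 libraries, though below Rab3a in each βDKO library, and stood at 150.2, 149 and 141 TPM across controls 1 to 3 and 91.8, 96.2 and 115 TPM across βDKO 1 to 3. All 3 βDKO libraries were below every control. For Rab3d the log2 fold change was -0.54 on TPM (SE 0.10, limma adjusted p = 0.00159) and -1.39 after rescaling (SE 0.14, limma adjusted p = 0.000178). Rab3d is also expressed in acinar cells. The summed acinar markers were 435, 47.9 and 12.4 TPM across controls 1 to 3 and 101, 104 and 11.9 TPM across βDKO 1 to 3. The part of acinar cells in the Rab3d values was not tested. Rab3b, the Rab3 gene that fell most, is given above. Rab3c did not reach the filter and stood at 0.661, 2.004 and 1.08 TPM in the controls and 6.00, 6.22 and 3.63 TPM in βDKO. As shares of the summed Rab3 TPM, Rab3d went from 55.9 ± 4.36% to 38.8 ± 3.80%, Rab3a from 35.1 ± 2.76% to 57.4 ± 2.95% and Rab3b from 8.52 ± 1.89% to 1.77 ± 0.375%. Rab3d was the leading Rab3 transcript in each control and Rab3a in each βDKO library.

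**Figure D4:**
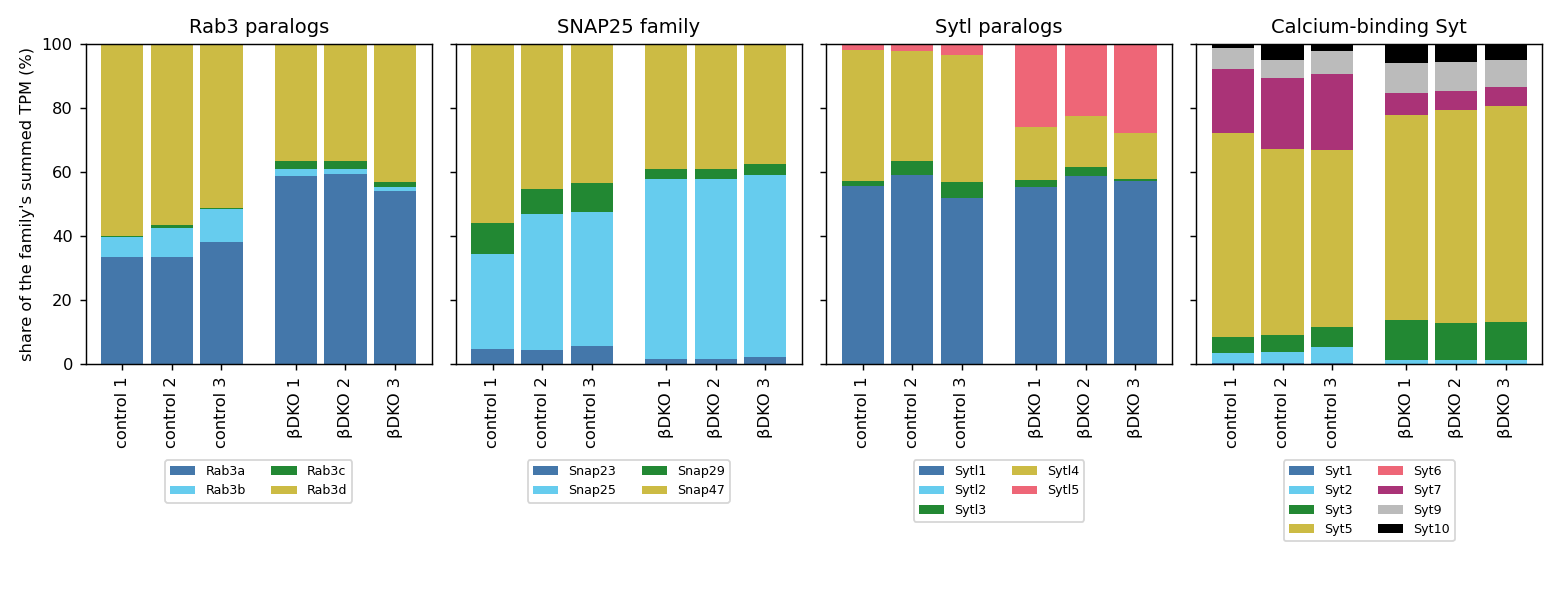
Share of each gene in the summed TPM of its family (%), with 1 stacked bar per library, for the Rab3 paralogs, the SNAP25 family, the Sytl paralogs and 8 calcium-binding synaptotagmins. Shares within a family do not depend on the scaling between libraries: Rab3a, Snap25 and Sytl5 take more of their families in each βDKO library, and Rab3d, Rab3b, Sytl4 and Syt7 take less.

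The 25 members that were not tested did not reach 5 TPM in 3 libraries. Of these, 17 stayed under 1 TPM in every library, and Syt8 and Vamp7 were listed at 0 in all 6. The GENCODE annotation places Vamp7 on an unplaced scaffold. The other 8 included Cadps2, Rab3c, Rims4, Stxbp3-ps, Syt2, Sytl3 and Unc13d. Syt2, a fast calcium sensor of synapses, stood at 3.48, 4.74 and 5.28 TPM across controls 1 to 3 and 1.90, 1.95 and 1.90 TPM across βDKO 1 to 3, below in each βDKO library. Rims4 stood at 0.144, 0.0994 and 0.732 TPM in the controls and 1.91, 2.54 and 1.40 TPM in βDKO, above in each. Genes of other secretory cells were near 0: Stx11 and Unc13d, which serve granule release in blood cells, reached at most 0.338 and 1.33 TPM, the neuronal Cplx1 and Rims1 at most 0.222 and 0.0789 TPM, and Rab27b at most 0.216 TPM.

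The 7 lists of other genes of the pathway, 94 genes of which 75 were tested, gave 13 that rose and 3 that fell on both scales. These were 17.3% and 4.0% of those tested, the first below its background of 23.4% and the second near its own of 4.61%, with medians of 0.77 on TPM and -0.037 after rescaling. None of the 4 SNARE disassembly genes tested rose or fell on both scales. Napa (α-SNAP) was higher on TPM and lower after rescaling. Its log2 fold change was 0.36 on TPM (limma adjusted p = 0.00388) and -0.48 after rescaling (limma adjusted p = 0.00443). Of the 16 intracellular SNAREs and their SM proteins tested, 1 rose, Use1, an ER SNARE (50.5 ± 7.04 TPM and 146 ± 15.9 TPM, rescaled log2 fold change 0.67, adjusted p = 0.00123). None of the 9 exocyst subunits, which tether vesicles at the plasma membrane, rose or fell on both scales. Active-zone scaffolds gave 3 rises of 10 tested, 30% against the background of 23.4%, and 2 of the 3 were not at 5 TPM in every control. Among the rises was Erc2, an ELKS protein that binds RIM, at 4.69 ± 0.546 TPM and 38.8 ± 4.93 TPM (rescaled 2.03, adjusted p = 8.85e-06). Of the 13 rises, 5 were not at 5 TPM in every control, Erc2 among them. Rimbp2 (RIM-BP2), which links RIM to calcium channels, was lower after rescaling alone (-0.86, adjusted p = 0.00389).

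Further Rab3 and Rab27 effectors and exchange factors gave 3 rises and no fall among 15 tested, with the rises at 20% against a background of 23.4%. Myrip, which couples Rab27a to myosin, went from 1.75 ± 0.216 TPM to 8.75 ± 0.617 TPM (rescaled 1.16, adjusted p = 0.000544). Rab3il1, an exchange factor, went from 0.905 ± 0.230 TPM to 7.51 ± 1.83 TPM (rescaled 1.55, adjusted p = 0.000737). Myrip and Rab3il1 were under 5 TPM in every control, so they entered the test only through βDKO. Vesicle membrane proteins gave 6 rises and 1 fall of 17 tested, 35.3% and 5.88% against backgrounds of 23.4% and 4.61%. Pam, the granule enzyme that amidates peptides, went from 260.0 ± 3.29 TPM to 975 ± 45.4 TPM (rescaled 1.05, adjusted p = 0.00024). Syn1, synapsin I, went from 22.8 ± 5.77 TPM to 65.9 ± 2.38 TPM (rescaled 0.69, adjusted p = 0.00202). Synpr (synaptoporin) went from 28.8 ± 1.46 TPM to 14.3 ± 1.99 TPM (rescaled -1.77, adjusted p = 5.61e-05). Of 4 other calcium-sensing and C2-domain genes tested, 2 fell: Baiap3, a Munc13 relative of dense-core granule cells, from 137 ± 72.2 TPM to 28.5 ± 5.63 TPM (rescaled -2.90, adjusted p = 0.00122), and Esyt1, an ER tether of the plasma membrane, from 120.1 ± 29.8 TPM to 47.4 ± 1.75 TPM (rescaled -2.13, adjusted p = 6.45e-06).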

How the data were processed

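RNA-seq libraries of fluorescence-sorted tdTomato-positive islet cells (3 control, 3 βDKO) were analysed from the TPM deposited by the authors, with 1 column per library. The submitters' processing notes list FastQC, Trimmomatic, HISAT2, HTSeq, DESeq2 and mm10. Tool versions, annotation and strand use were not given in the sources used here. TPM divides reads by gene length and scales each library to 1 total. The table held 24421 rows, 6614 of them at 0 throughout. In 27 rows the name had become a date, and these stayed unmatched. Unused value columns numbered 0.

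The test took the 10404 genes that reached 5 TPM in 3 or more libraries. limma 3.58.1 in R 4.3.3 was run on log2(TPM + 1), robust and with a trend, two-sided, with group as the only factor. p-values were adjusted by Benjamini-Hochberg over all 10404 genes at 0.05. The same fit was made on TPM divided by median-of-ratios size factors (0.643 to 1.38). Because 1 is added before the logarithm, log2 fold changes on both scales understate the change of low genes. Errors beside means are SD with n = 3. Because the files held TPM, the count test foreseen for a count table was not used.

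Whole reads were recovered from the TPM for 16625 of 16625 rows above 0 in at least 2 libraries (100%, within 0.01 of a read). Within a gene they are exact only up to 1 shared multiple, and they entered 1 alternative. The totals ran from 25388872 to 31282056 reads, which limits the precision of members under a few TPM. The test was checked on simulated data.

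The members and the gene lists were chosen with earlier results of these data known. Every member may be named. Values in every library are given for 13 genes of a core set, for the 10 largest rises by log2 fold change on TPM and all 7 falls, and for the gene with the highest mean over all libraries in each role. Of each companion list, up to 2 genes each way were named by smallest rescaled adjusted p, and Napa, Rimbp2 and the low members given per library were added after their values were seen. A few genes under these rules are left unreported, though the fits and counts include them. Gene spans are from GENCODE M21 and promoters from RefSeq (GRCm38.p6). The alternatives were another scaling, pseudocount, other filters, plain limma, a replicate block, each library left out, βDKO 1 and 2 averaged, and limma-voom on recovered reads.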

Additional observations from a re-analysis of the deposited data

How the results depend on the processing

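All 7 falls passed on both scales in each of the 15 alternatives. Of the 18 rises, 11 passed in every alternative and 15 in every alternative that tested them; the exceptions were Stxbp5, Stx1a (without βDKO 2) and Rims2 (βDKO 1 and 2 averaged). The limma-voom and mean-filter settings were chosen after seeing the data. Depth limits members under the filter, and the choice of scale decides the sign for genes near the typical change.

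Scaling to all genes but hormones took the place of both scales, so a pass on both scales under it is the same fit counted again. It gave 17 members higher and 19 lower, against 38 and 7 on TPM. For the companion genes it gave 13 higher and 15 lower. Under it the TPM log2 fold change turned negative for these members: Cadps -0.64, Cplx2 -0.55, Rab3a -0.19, Snap23 -0.42, Snap29 -0.51, Stx12 -0.20, Stx18 -0.32, Stx3 -0.46, Stx5a -0.16, Stx6 -0.44, Stx7 -0.40, Stx8 -0.55, Stxbp2 -0.28, Stxbp3 -0.50, Syt14 -0.15, Syt5 -0.15, Vamp1 -0.099 and Vamp8 -0.27. This follows from the construction, which removes the hormone share. With limma-voom, TPM were replaced by recovered reads relative to each library's total reads. The log2 fold change was then negative for 6: Cadps -0.17, Cplx2 -0.065, Snap29 -0.043, Stx3 -0.016, Stx8 -0.11 and Stxbp3 -0.025. The cause was not tested. Companion genes lower on TPM (for limma-voom, relative to total reads), and on both scales, numbered 5 with no filter and 5 with limma-voom, against 3.

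When each library was left out in turn, members higher after rescaling and on both scales numbered 11 to 19, and companion genes 7 to 15, with the lowest counts for companions without βDKO 1 or βDKO 2. Part of the drop comes from fewer genes tested. Of members not called on the scale concerned, the sign turned for Rab27a on TPM (-0.041 to 0.033) and, after rescaling, for Stx5a (-0.23 to 0.021), Syt5 (-0.29 to 0.033), Unc13b (-0.24 to 0.28), Vamp1 (-0.26 to 0.068) and Vamp2 (-0.025 to 0.16).

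The labels do not say whether the replicate numbers pair the samples. Deviations of same-numbered libraries correlated at -0.079, -0.024 and 0.20, and those of differently numbered libraries at -0.25 to 0.24. These few values do not settle whether the libraries were paired. With the replicate number as a block, the members gave 37 calls upward and 7 downward on TPM, and 17 and 18 after rescaling. Companion genes gave 62 and 3 on TPM, and 14 and 14 after rescaling.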
